A study of Bos taurus with 10 samples.

Results

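The genes described here are 9 regulators of the pluripotent cells of the early embryo: NANOG, POU5F1, SOX2, OTX2, LIN28A, KLF17, KLF4, SALL4 and SPIC. They were chosen by name, with earlier results of these data known, so counts of the 9 set beside all genes are a description only. All 9 were found among the 28700 gene symbols that have 1 line in the deposited expression table. Each was matched by its symbol, and each has a mean of at least 1 FPKM (fragment counts scaled for gene length and sequencing depth), the minimum set for testing. The series title asks what the oocyte linker histone H1FOO does for lineage choice and nucleosome assembly in cattle embryos. Zygotes received small interfering RNA against H1FOO (knockdown, KD) or a negative control small interfering RNA (NC), and polyadenylated RNA was sequenced from whole embryos. Embryos of the 8/16-cell stage, day 4 after insemination, gave 2 NC and 2 KD libraries, and morulae, day 5.5, gave 3 NC and 3 KD libraries. The labels name neither the number of embryos per library nor whether replicates came from separate collections, so the p-values speak only of the spread among these libraries, which may be technical.

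In the early embryo a small set of transcription factors keeps cells able to form every tissue of the body. POU5F1 (OCT4), SOX2 and NANOG bind many of the same enhancers and form the core of this network, KLF4 and KLF17 are zinc finger factors linked to its earliest, naive form, and SALL4 is a zinc finger partner of POU5F1. OTX2 is a homeobox factor linked to the later, formative epiblast, LIN28A is an RNA-binding protein that blocks the making of let-7 microRNAs, and SPIC is a factor of the ETS family. In cattle the embryonic genome becomes active around the 8/16-cell stage, and the first lineages, trophectoderm and inner cell mass, separate between the morula and the blastocyst. A whole-embryo library mixes all cells, so fewer cells of a type and less RNA per cell cannot be told apart.

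H1FOO, the target, stood at 50.8 and 10.8 FPKM in the NC 8/16-cell libraries ; the KD libraries of that stage held 0.649 and 0.0736 FPKM, and it was at most 2.17 FPKM in any morula. The number of genes at 1 FPKM or more ran from 11103 to 11872 per library. Relative depth, read from the commonest ratio of the lowest values, ran from 0.71 to 1.44 of NC 8/16-cell replicate 1, and true depth is unknown. The 18S ribosomal RNA gene RN18S1 was higher in KD morulae (8553 to 11581 FPKM) than in replicates 1 and 2 of the NC morulae (2704 and 2983 FPKM, with 8611 in replicate 3).

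In NC embryos the 9 genes fell into 3 kinds by how they differed between the stages. NANOG, KLF17 and KLF4 fell from the 8/16-cell stage to the morula, POU5F1, OTX2, LIN28A and SPIC rose, and SOX2 and SALL4 did not pass the test. The test was limma on log2(FPKM + 1), with the Benjamini-Hochberg adjustment over the 11761 tested genes, and a gene passed where its adjusted p was under 0.05. Of the 9 genes 7 passed, 4 higher and 3 lower in the morula, while 30.8% of all tested genes passed (12.6% higher, 18.2% lower).

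SPIC and OTX2 were near the lower end of the scale at the 8/16-cell stage. SPIC stood at 2.14 and 2.13 FPKM in NC 8/16-cell embryos and at 34.8, 62.2 and 31.0 FPKM in NC morulae. The mean rose 20.0-fold, and the log2 difference was 3.73 (SE 0.40, n = 2 and 3, limma adjusted p 0.000354). OTX2 went from 5.44 and 1.61 FPKM to 71.9, 42.8 and 39.6 FPKM, a log2 difference of 3.63 (SE 0.66, adjusted p 0.00316). The pseudocount of 1 makes the log2 differences of such low genes smaller than the ratio of their means.

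POU5F1 became the most abundant of the 9. It stood at 180 and 117 FPKM in NC 8/16-cell embryos and at 673, 449 and 555 FPKM in NC morulae, 3.77-fold by the means (log2 difference 1.92, SE 0.33, limma adjusted p 0.0024). In the NC morulae it ranked between 98 and 130 among all 28700 genes. LIN28A moved from 15.6 and 7.82 FPKM to 49.1, 44.1 and 25.1 FPKM (1.69, SE 0.46, adjusted p 0.0192), with no overlap between the stages. Without NC 8/16-cell replicate 2 or NC morula replicate 1 or 2 the LIN28A call was lost, with adjusted p-values of 0.171, 0.069 and 0.0526.

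NANOG showed the largest fall among the 9 in NC embryos. It went from 63.2 and 36.1 FPKM at the 8/16-cell stage to 6.48, 14.4 and 18.8 FPKM in the morula (log2 difference -1.89, SE 0.38, limma adjusted p 0.00522), and without NC 8/16-cell replicate 1 the call was lost (adjusted p 0.0708). KLF17 stood at 216 and 196 FPKM and then at 49.8, 71.4 and 79.0 FPKM (-1.64, SE 0.28, adjusted p 0.0024). KLF4, the most abundant of the 9 at the 8/16-cell stage with 380 and 316 FPKM, was at 194, 162 and 201 FPKM in NC morulae (-0.90, SE 0.18, adjusted p 0.00439). Its call was lost without NC 8/16-cell replicate 1 (adjusted p 0.0566).

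SOX2 and SALL4 did not pass between the stages of NC embryos, and their means were slightly higher in the morula. SOX2 stood at 112 and 91.0 FPKM and then at 151, 123 and 102 FPKM, with overlapping ranges (log2 difference 0.29, 95% interval -0.24 to 0.82, limma adjusted p 0.377). SALL4 had 91.9 and 93.7 FPKM before and 123, 113 and 96.7 FPKM after (0.25, 95% interval -0.24 to 0.74, adjusted p 0.42). SALL4 did not overlap between the stages, as was the case for 56.9% of all genes tested.

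Because FPKM is scaled by gene length, levels can also be ordered between genes. In NC 8/16-cell embryos the means ran from KLF4 (348 FPKM), KLF17 (206), POU5F1 (148), SOX2 (102), SALL4 (92.8) and NANOG (49.7) to LIN28A (11.7), OTX2 (3.52) and SPIC (2.13). The ranges of SOX2 and SALL4 overlapped, as did those of OTX2 and SPIC. In NC morulae the order was POU5F1 (559 FPKM), KLF4 (186), SOX2 (125), SALL4 (111), KLF17 (66.7), OTX2 (51.4), SPIC (42.7), LIN28A (39.4) and NANOG (13.2). There SOX2 overlapped with SALL4, and KLF17, OTX2, SPIC and LIN28A could not be ordered beyond the spread of neighbouring libraries, apart from KLF17 against LIN28A. NANOG lay below the other 8 in every NC morula library.

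**Figure D1:**
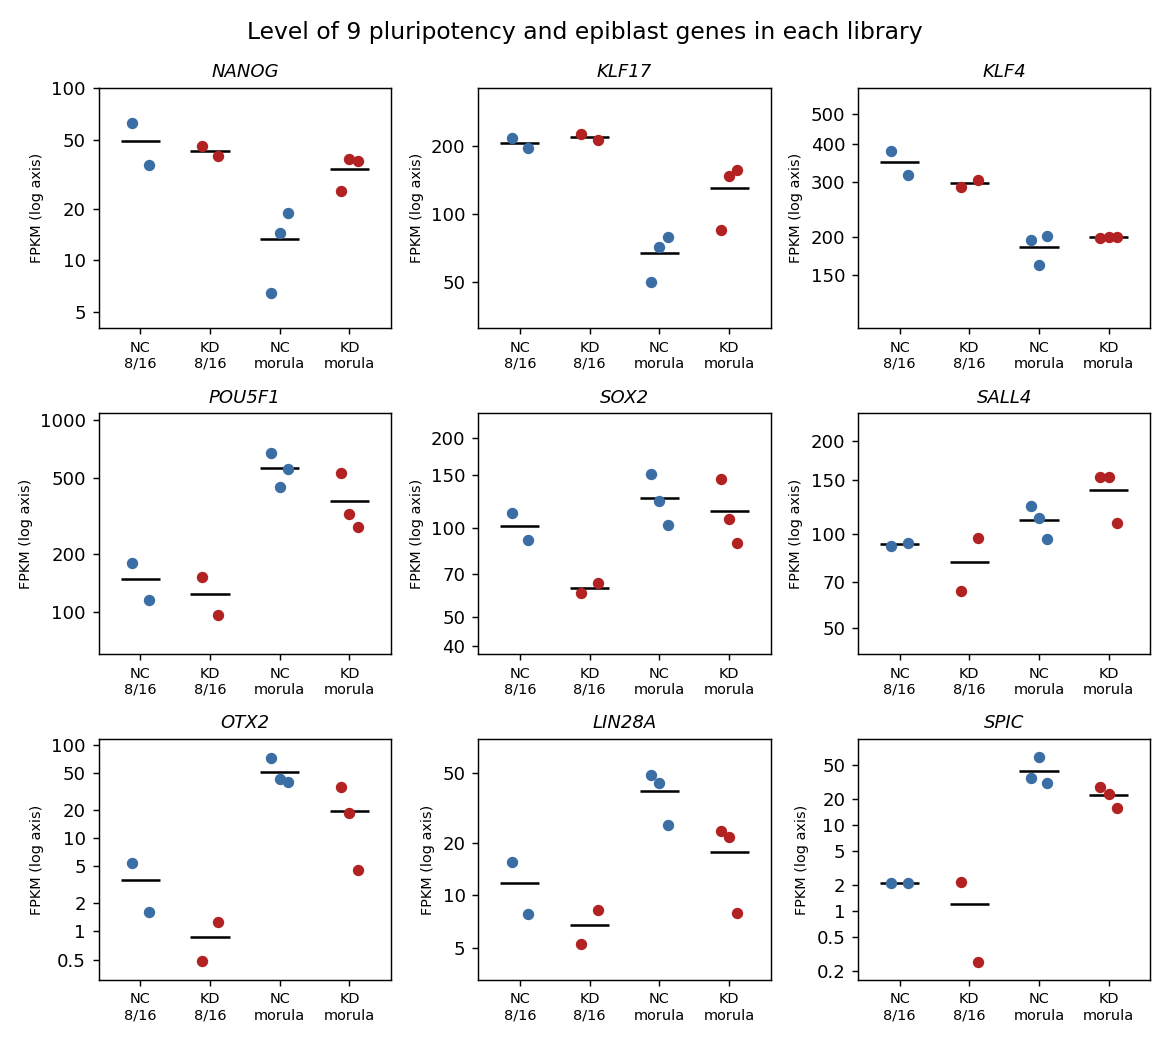
Each panel plots 1 gene, with FPKM on a log axis and the 4 groups along the x axis; points are libraries (blue NC, red KD) and black lines are group means. NANOG and KLF17 are lowest in NC morulae (means 13.2 and 66.7 FPKM), while OTX2, LIN28A and SPIC are highest there (51.4, 39.4 and 42.7 FPKM).

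In KD embryos the stages were compared in the same fit, from other group means but with the spread estimated over all 10 libraries. There 6 of the 9 genes passed, POU5F1, SOX2, OTX2, SALL4 and SPIC higher and KLF4 lower in the morula, beside 20% of all genes tested (5.22% higher, 14.8% lower). SPIC went from 2.17 and 0.252 FPKM to 27.9, 23.0 and 15.6 FPKM (log2 difference 3.50, SE 0.40, limma adjusted p 0.000982). OTX2 went from 0.485 and 1.27 FPKM to 35.6, 18.6 and 4.62 FPKM (3.12, SE 0.66, adjusted p 0.0111); each morula library lay above both 8/16-cell libraries. The OTX2 call was lost in 3 of 17 alternative settings: without KD 8/16-cell replicate 1 or 2 (adjusted p 0.0839 and 0.0537) and with only the libraries of the KD groups fitted (0.0502).

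POU5F1 stood at 152 and 97.4 FPKM in KD 8/16-cell embryos and at 531, 324 and 277 FPKM in KD morulae (log2 difference 1.57, SE 0.33, limma adjusted p 0.0104; 0.0982 without KD 8/16-cell replicate 2). SOX2 went from 60.2 and 65.0 FPKM to 146, 107 and 89.1 FPKM (0.83, SE 0.24, adjusted p 0.0354). SALL4 had 65.9 and 97.1 FPKM and then 153.1, 153.5 and 109 FPKM (0.77, SE 0.22, adjusted p 0.036). KLF4 had 290 and 306 FPKM and then 198.1, 199.7 and 199.4 FPKM (-0.58, SE 0.18, adjusted p 0.0426). These last 3 calls lay close to the threshold: of 17 alternative settings SOX2 and SALL4 passed in 9 each and KLF4 in 6. Each of the 3 was lost without KD 8/16-cell replicate 1 (adjusted p 0.155, 0.247 and 0.123), without KD morula replicate 1 (0.107, 0.108 and 0.105) and without KD morula replicate 2 (0.069, 0.0957 and 0.0893). They were also lost without either NC 8/16-cell library, which takes part only through the shared spread (adjusted p 0.0507 to 0.0574), without KD 8/16-cell replicate 2 for SOX2 (0.123) and KLF4 (0.173), and for KLF4 without KD morula replicate 3 (0.0796) or NC morula replicate 1 (0.0505).

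NANOG did not pass between the stages of KD embryos. It stood at 46.5 and 40.2 FPKM in the 8/16-cell libraries and at 25.4, 39.0 and 37.8 FPKM in the morulae, a log2 difference of -0.36 (95% interval -1.21 to 0.49, limma adjusted p 0.532), against -1.89 in NC embryos. KLF17 went from 226 and 211 FPKM to 84.7, 147 and 157 FPKM (-0.80, SE 0.28, adjusted p 0.0653), and LIN28A from 5.22 and 8.22 FPKM to 23.3, 21.5 and 7.88 FPKM (1.16, SE 0.46, adjusted p 0.094). The LIN28A ranges overlapped through KD morula replicate 3, and without that library the difference was 1.63 (adjusted p 0.0233).

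Whether the stage difference itself differed between KD and NC embryos was tested as an interaction, and none of the 9 genes passed. NANOG had the largest interaction (log2 1.53, 95% interval 0.33 to 2.73, limma adjusted p 0.479; unadjusted p 0.0172), followed by KLF17 (0.84, adjusted p 0.545). Adjusted p-values of the 9 ran from 0.479 to 0.914. Across all genes tested 2 passed the interaction (0.017%), and 1104 (9.39%) had an unadjusted p under 0.05, as did NANOG alone of the 9.

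**Figure D2:**
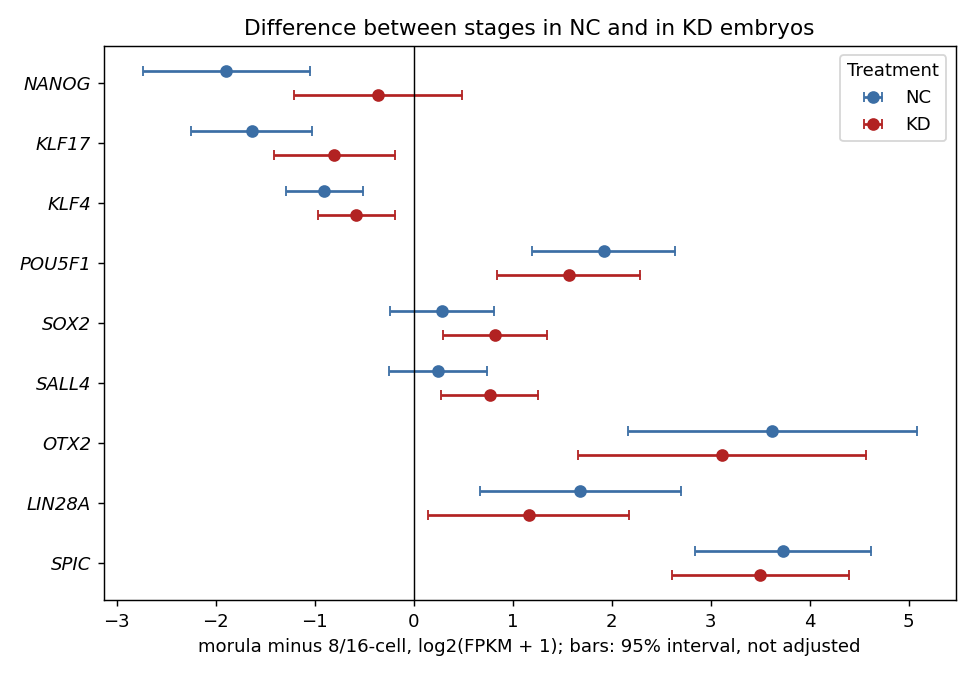
Points are the log2(FPKM + 1) difference of morula minus 8/16-cell embryos for each gene, in NC (blue) and KD (red) embryos, with unadjusted 95% intervals from limma as bars. OTX2 and SPIC lie furthest to the right in both treatments (3.63 and 3.73 in NC, 3.12 and 3.50 in KD), and NANOG lies at -1.89 in NC and -0.36 in KD.

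Knockdown and control embryos were then compared within each stage. At the 8/16-cell stage none of the 9 genes passed (limma, all adjusted p 1), and 1 had an unadjusted p under 0.05. Across all genes tested 2 passed there (0.017%), and 514 (4.37%) had an unadjusted p under 0.05. SOX2 was the 1 gene with the low unadjusted p: NC libraries held 112 and 91.0 FPKM, KD libraries 60.2 and 65.0 FPKM, and the groups did not overlap (log2 difference -0.68, 95% interval -1.26 to -0.11). OTX2 (-1.16) and KLF4 (-0.22) also had KD libraries below both NC libraries, so that 3 of 9 did not overlap, beside 33.2% of all genes tested.

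The other 6 genes overlapped at the 8/16-cell stage. NANOG (log2 difference -0.14, 95% interval -1.07 to 0.79), POU5F1 (-0.25, -1.04 to 0.54), LIN28A (-0.68, -1.78 to 0.43), SALL4 (-0.21, -0.75 to 0.33) and SPIC (-0.66, -1.63 to 0.32) had lower means in KD. KLF17 had a slightly higher one (0.08, -0.59 to 0.76), with a sign that turned under quantile normalization (-0.0096) and equal library sums (-0.028). The intervals of OTX2, LIN28A and SPIC reach beyond -1.5, so differences of that size are not excluded for these genes. The OTX2 difference was -0.51 without NC replicate 1. For SPIC the lower KD mean came from KD replicate 2 alone (0.252 FPKM), since the other 3 libraries held 2.13 to 2.17 FPKM, and without it the difference was 0.014.

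The KD 8/16-cell libraries also stood apart in other measures. The microRNA genes MIR2887-1 and MIR2887-2 took 26.1% and 7.04% of the summed FPKM in KD 8/16-cell replicates 1 and 2 and 0% in the other 8 libraries. With these genes left out and library sums made equal, the difference of SOX2 was -0.79 and that of NANOG -0.25. The summed level of 15 markers of cumulus and granulosa cells, which surround the oocyte in the follicle, was 152 to 161 FPKM in NC and 255 to 273 FPKM in KD 8/16-cell libraries. TIMP1 had 56.3 and 62.3 FPKM in NC, against 130 and 109 FPKM in KD, and VIM 16.4 and 20.3 against 31.9 and 41.5 FPKM, while FSHR had a mean under 0.1 FPKM in both groups. SERPINE2 differed less, with 25.1 and 27.8 FPKM in NC, against 32.0 and 33.3 FPKM in KD. Of the 12 tested markers of this list 8 had a positive and 4 a negative difference, and none passed (limma adjusted p 1 for TIMP1 and VIM). Sums of trophectoderm markers were 192 to 216 FPKM in NC and 166 to 177 FPKM in KD, those of primitive endoderm markers 175 to 215 and 160 to 169 FPKM, and those of oocyte transcripts 386 to 630 and 373 to 424 FPKM. The part of these measures in the 8/16-cell differences of the 9 genes was not tested further.

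In morulae the genes lay to both sides. By their means NANOG and KLF17 were higher in KD than in NC embryos, OTX2, LIN28A, SPIC and POU5F1 lower, and SOX2, SALL4 and KLF4 within 0.31 of 0 on the log2 scale. None of the 9 passed without a block (limma adjusted p 0.0724 to 0.732), where 0.697% of all genes tested passed, and 5 had an unadjusted p under 0.05, beside 21.2% of all genes tested. Deviations from the group means were partly shared by same-numbered KD and NC morula libraries (r = 0.37, 0.325 and 0.312 across genes), so a second fit took these numbers as a block. The labels do not say that equal numbers mark a shared collection, and the pairing was read from the same values that were then tested. That fit had 3 residual degrees of freedom. With the block 5 of the 9 passed (55.6%), NANOG and KLF17 higher and POU5F1, OTX2 and LIN28A lower, beside 11.9% of all genes tested (3.89% higher, 8% lower).

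In the 3 NC morulae NANOG had 6.48, 14.4 and 18.8 FPKM, and in the 3 KD morulae 25.4, 39.0 and 37.8 FPKM. Every KD library was above every NC library, and the mean was 2.57-fold higher. On the log2 scale KD exceeded NC by 1.39 (SE 0.34, n = 3 per group, limma adjusted p 0.0724; with the block SE 0.19, adjusted p 0.00506). Within numbers 1, 2 and 3 KD was 3.93-, 2.71- and 2.01-fold above NC. By abundance NANOG ranked between 1800 and 2754 among the genes of a KD morula library and between 3702 and 6907 in the NC morulae.

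NC morulae held 49.8, 71.4 and 79.0 FPKM of KLF17 and KD morulae 84.7, 147 and 157 FPKM, again without overlap. The mean was 1.94-fold higher in KD (log2 difference 0.92, SE 0.25, n = 3 per group, limma adjusted p 0.0841; with the block SE 0.12, adjusted p 0.00467). Within the 3 numbers the ratios were 1.70, 2.05 and 1.98. KD morula replicate 1 was the KD library nearest to the controls, and without it KLF17 passed in the fit without the block too (limma adjusted p 0.0293). Leaving that library out also raised the count over all genes tested, from 82 to 527 that passed.

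For OTX2 the NC morulae held 71.9, 42.8 and 39.6 FPKM and the KD morulae 35.6, 18.6 and 4.62 FPKM. The KD libraries spread 7.7-fold among themselves and all lay below the NC libraries (log2 difference -1.67, SE 0.59, n = 3 per group, limma adjusted p 0.148; with the block 0.0355). Without KD replicate 3 the OTX2 difference was -0.92. LIN28A came to 49.1, 44.1 and 25.1 FPKM in NC morulae, against 23.3, 21.5 and 7.88 FPKM in KD morulae, close to touching but without overlap (-1.20, SE 0.41, adjusted p 0.138; with the block 0.0232), and without KD replicate 3 the difference was -0.73. KD morula replicate 3 held the lowest KD value of OTX2, LIN28A, POU5F1, SPIC, SOX2 and SALL4.

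POU5F1 overlapped between the treatments. NC morulae held 673, 449 and 555 FPKM and KD morulae 531, 324 and 277 FPKM (log2 difference -0.60, 95% interval -1.25 to 0.04, n = 3 per group, limma adjusted p 0.264), and within the 3 numbers KD was at 0.789, 0.721 and 0.50 of NC (with the block SE 0.15, adjusted p 0.0329). SPIC had 34.8, 62.2 and 31.0 FPKM in NC, against 27.9, 23.0 and 15.6 FPKM in KD morulae; it did not overlap but passed neither without (-0.88, adjusted p 0.199) nor with the block (adjusted p 0.0729), and its difference was -0.58 without NC replicate 2.

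SOX2, SALL4 and KLF4 overlapped between the treatments and passed in neither fit. SOX2 came to 151, 123 and 102 FPKM in NC, against 146, 107 and 89.1 FPKM in KD morulae (log2 difference -0.15, 95% interval -0.62 to 0.32). SALL4 came to 123, 113 and 96.7 FPKM in NC, against 153.1, 153.5 and 109 FPKM in KD morulae (0.31, -0.13 to 0.75). KLF4 had the narrowest interval of the 9 (0.11, -0.24 to 0.45), and its 3 KD libraries lay within 198.1 to 199.7 FPKM. In all, 5 of 9 genes did not overlap between KD and NC morulae, beside 23.8% of all genes tested.

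The blocked calls rested on 3 pairs. Without the libraries numbered 1, and likewise without those numbered 3, none of the 9 passed in the blocked fit (limma, 0 and 18 genes of the whole table, with 2449 and 2257 at an unadjusted p under 0.05), and without those numbered 2 NANOG (adjusted p 0.0447) and KLF17 (0.0339) passed. The 5 genes kept their sign in all 3 of these fits. Over the 17 other settings tried, the block among them, adjusted p-values in morulae ran from 0.00506 to 0.275 for NANOG, 0.00467 to 0.309 for KLF17, 0.0329 to 0.604 for POU5F1, 0.0355 to 0.422 for OTX2 and 0.0232 to 0.42 for LIN28A.

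**Figure D3:**
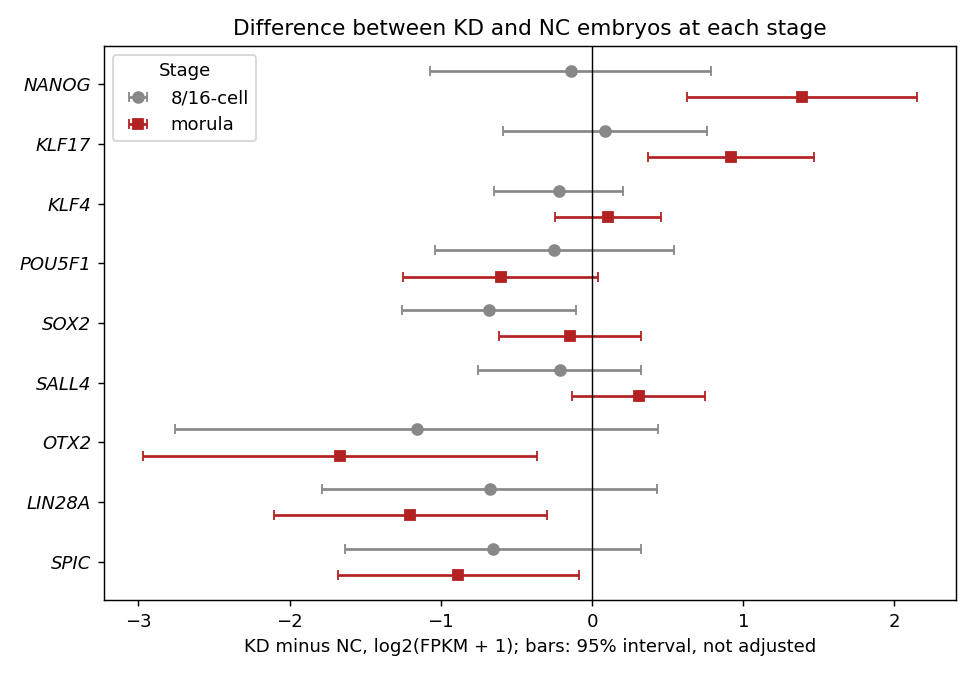
Points are the log2(FPKM + 1) difference of KD minus NC embryos for each gene at the 8/16-cell stage (grey circles) and in morulae (red squares), with unadjusted 95% intervals from limma without the block. At the morula stage NANOG (1.39) and KLF17 (0.92) lie right of 0 and OTX2 (-1.67), LIN28A (-1.20) and SPIC (-0.88) left of it.

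**Figure D4:**
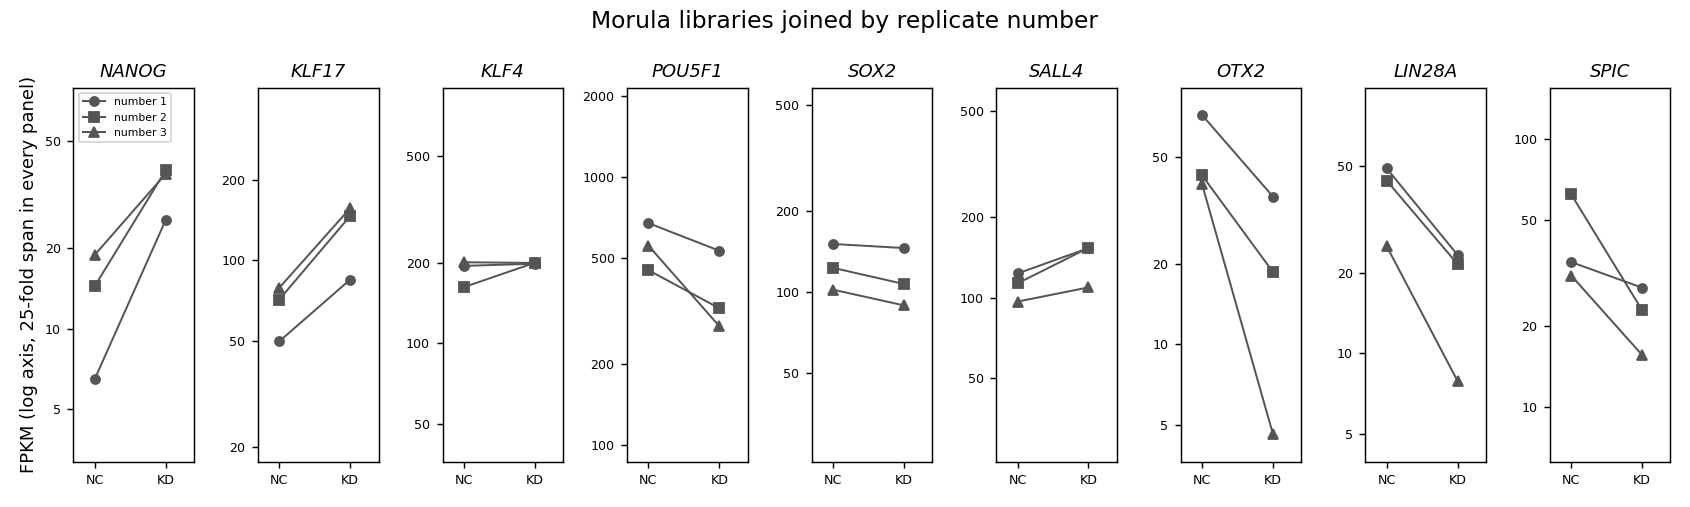
Each panel plots FPKM on a log axis of equal span for 1 gene in morulae, and lines join the NC and KD library of the same replicate number. All 3 lines go up for NANOG, KLF17 and SALL4 and down for POU5F1, SOX2, OTX2, LIN28A and SPIC, with KLF4 within 0.994 to 1.23 of NC. How many of all genes had all 3 lines going the same way was not counted. SOX2, SALL4 and SPIC passed neither with nor without the block, and the labels do not say that equal numbers belong together.

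The levels of NANOG, KLF17, POU5F1, OTX2, LIN28A and SPIC in KD morulae can be set beside both control stages. Mean NANOG was 49.7 FPKM in NC 8/16-cell embryos, 34.1 in KD morulae and 13.2 in NC morulae, and KLF17 206, 129 and 66.7 FPKM. For the genes that were higher in NC morulae, POU5F1 had 148, 377 and 559 FPKM, OTX2 3.52, 19.6 and 51.4 FPKM, LIN28A 11.7, 17.6 and 39.4 FPKM, and SPIC 2.13, 22.2 and 42.7 FPKM in the same order. KLF4 had 348, 199 and 186 FPKM and SOX2 102, 114 and 125 FPKM. SALL4 did not lie between the control stages, with 92.8, 139 and 111 FPKM. How many of all genes had a KD morula mean between the control stages was not counted. The comparison of stages in NC and the comparison of treatments in morulae share the NC morula libraries, so these 2 sets of differences are not independent.

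Markers of other cell types were summed in the same morulae. The summed level of 14 trophectoderm markers was 190 to 313 FPKM in NC and 130 to 191 FPKM in KD morulae, with 10 and 9 of them at a mean of 1 FPKM or more, and that of 10 primitive endoderm markers was 359 to 631 and 185 to 345 FPKM, with 8 and 9. TFAP2C, KRT18 and TEAD4, the most abundant of the first list, had log2 differences of 0.00, -0.59 and -0.23, and FN1, LAMB1 and GATA6 of the second -2.66, -1.02 and -0.34. FN1 and LAMB1 passed with the block (limma adjusted p 0.00081 and 0.00657) and not without it (0.0513 and 0.0726). HNF4A of the second list had a mean under 0.1 FPKM in all 4 groups. Of all the marker lists 1 gene passed without the block: DSP, a trophectoderm marker, which fell from a mean of 8.23 to 1.98 FPKM (-1.64, adjusted p 0.0294). Under the block 4 of 12 tested trophectoderm markers were lower, CDX2 among them (mean 9.17 FPKM in NC, 1.82 in KD). Of 9 tested primitive endoderm markers 5 were lower and 1 higher, beside 8% lower and 3.89% higher of all genes tested.

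The 15 cumulus and granulosa cell markers summed to 142 to 180 FPKM in NC and 140 to 290 FPKM in KD morulae, with 8 and 11 at 1 FPKM or more. Under the block 3 of 12 tested were higher and 1 lower, beside 3.89% and 8% of all genes tested. The higher ones were VIM (limma adjusted p with the block 0.00881), CYP11A1 (0.0063) and COL1A1 (0.046), and the lower one was SERPINE2 (0.0254). CYP11A1 had means of 2.35 FPKM in NC and 8.51 FPKM in KD morulae, and COL1A1 2.94 and 5.87 FPKM. HAS2, PTX3 and FSHR were under 0.1 FPKM in both groups. VIM, which many cell types make, had a mean of 3.72 FPKM in NC and 19.2 FPKM in KD morulae, where replicate 3 alone held 43.3 FPKM, while TIMP1 and SERPINE2 had log2 differences of 0.23 and -0.71. The 15 oocyte transcripts summed to 83.3 to 110 FPKM in NC and 87.2 to 102 FPKM in KD morulae, with 7 and 9 at 1 FPKM or more and 2 of 13 tested higher under the block, with DPPA3 at -0.29, OOEP at 0.20 and KHDC3L at 0.71. The part of these markers, and of RN18S1, in the differences of the 9 genes was not tested.

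The 5 lists of network genes give the wider network around the 9 genes, and no gene of them passed between KD and NC at either stage without the block. Over all genes tested the median log2 difference in morulae was -0.08, with 4939 positive and 6812 negative of 11761. Under the block 3.89% of all genes tested were higher and 8% lower. Of 11 tested naive pluripotency factors 9 had a negative difference (median -0.29), with 1 higher and 1 lower under the block. ARGFX, a homeobox factor of the cleaving embryo, had 61.9, 74.5 and 63.1 FPKM in NC, against 78.6, 125 and 162 FPKM in KD morulae (0.81, limma adjusted p 0.0988; with the block 0.028). TFCP2L1 had 10.7, 4.68 and 2.58 FPKM in NC, against 2.81, 2.16 and 1.04 FPKM in KD (-1.09, with the block 0.0224). ZFP42 (REX1, -0.51) and KLF2 (-0.57) passed in neither fit.

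Among 13 tested formative and primed epiblast genes 8 were positive (median 0.16), and 1 passed under the block, beside 11.9% of all genes tested. This was POU3F1, a POU factor of the later epiblast, with 1.88, 2.87 and 3.40 FPKM in NC, against 5.42, 9.32 and 6.99 FPKM in KD morulae (log2 difference 1.14, limma adjusted p 0.0841; with the block 0.0232). Mean POU3F1 was higher at the 8/16-cell stage, at 19.5 FPKM for NC embryos (KD embryos: 15.7). From there to the morula it fell in NC embryos (-2.49, limma adjusted p 0.00105). In KD embryos that stage difference did not pass (-0.91, limma adjusted p 0.0846). FGF4, the growth factor through which epiblast cells signal to primitive endoderm, was listed at 0 in all 4 8/16-cell libraries, and had 5.79, 6.45 and 6.77 FPKM in NC, against 6.17, 3.41 and 0.782 FPKM in KD morulae (-0.93, adjusted p 0.218). FGFR1 (0.60) and SALL2 (0.49) did not pass either.

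The list around LIN28A held 18 tested genes, 11 of them negative in morulae (median -0.08). With the block 1 of the 18 passed, beside 11.9% of all genes tested. MYC, a let-7 target and growth regulator, had 2.81, 7.22 and 5.80 FPKM in NC, against 9.51, 21.1 and 15.2 FPKM in KD morulae (log2 difference 1.38, limma adjusted p 0.0624; with the block 0.0029), and no other gene of the list passed with the block. ARID3B (0.50) and TRIM71 (0.54), 2 further let-7 targets, and DICER1 (-0.42), which cuts the let-7 precursor, passed in neither fit. MYC had stood at 42.8 and 36.7 FPKM in NC 8/16-cell embryos. From there to NC morulae MYC, ARID3B and TRIM71 fell (-2.77, -1.07 and -1.33, limma adjusted p 0.000662, 0.00342 and 0.00257), while DICER1 did not pass (-0.09). 

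Of 26 tested cofactors of POU5F1, NANOG and SALL4, 17 were negative (median -0.11). Under the block 1 was higher and 4 lower, beside 3.89% and 8% of all genes tested. HDAC2, a deacetylase of the NuRD complex, had 66.8, 62.9 and 55.4 FPKM in NC, against 44.1, 31.4 and 28.1 FPKM in KD morulae (log2 difference -0.84, limma adjusted p 0.0617; with the block 0.00823). GATAD2B, another NuRD subunit, was higher (0.79, with the block 0.0423), and the signal-driven factors STAT3 (-0.90, 0.0118) and SMAD3 (-0.78, 0.0259) were lower, as was HDAC1, the close relative of HDAC2 (-0.59, 0.0182). Relatives of the 9 genes in their protein families gave 13 of 22 negative differences (median -0.10), with POU3F1 higher and KLF6 lower under the block (KLF6 -0.72, 0.0366). The KLF family members KLF9 (-0.72), KLF11 (-0.62) and KLF3 (0.41) passed in neither fit.

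The 9 genes were also compared with each other and with all tested genes over the 10 libraries. Pearson correlations of log2(FPKM + 1) are given as a description, since the libraries fall into stages and treatments that they share. NANOG and KLF17 ran together (r = 0.937, and 0.927 after each library was taken as its deviation from the stage mean). OTX2 and LIN28A ran together as closely (0.957 and 0.957), and OTX2 and POU5F1 nearly so (0.95 and 0.809). NANOG ran opposite to POU5F1 (-0.756 and -0.555) and to OTX2 (-0.782 and -0.597). KLF17 ran more strongly opposite to POU5F1 (-0.92 and -0.767) and OTX2 (-0.935 and -0.807), and also opposite to LIN28A (-0.892 and -0.773). KLF4 and SPIC, at -0.929 over all libraries, had -0.311 within stages.

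The most similar patterns over all 10 libraries were found in genes outside these lists, apart from SMAD3. For NANOG they were SEMA6C, PPP1R15A and VIPR1 (r = 0.982, 0.982 and 0.98), for KLF17 PI4KB, LOC524768 and MFSD2A (0.989, 0.987 and 0.985), and for KLF4 PAPD4, RAB40C and PPP1R11 (0.998, 0.995 and 0.99). For POU5F1 they were LOC528262, MYO1C and CD48 (0.994, 0.992 and 0.988), and for SPIC TMEM42, OPTN and AVIL (0.992, 0.987 and 0.983). OTX2 was closest to FMNL1, AFDN and ARFGEF2 (0.987, 0.984 and 0.984), and LIN28A to SMAD3, CLIC6 and AKAP12 (0.982, 0.978 and 0.974). SOX2, with CALCOCO1, EARS2 and CYP2S1 (0.958, 0.95 and 0.949), and SALL4, with HCFC1, TXLNA and BBS2 (0.94, 0.926 and 0.926), had looser neighbours. Of the deviations from the stage mean, the closest genes were VIPR1 for NANOG (0.977), MFSD2A for KLF17 (0.988), PAPD4 for KLF4 (0.977), SIX5 for POU5F1 (0.986), TMEM42 for SPIC (0.954), TRIM6 for OTX2 (0.976), TMPPE for LIN28A (0.989), INPP5D for SOX2 (0.95) and MBD6 for SALL4 (0.982).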

How the data were processed

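Polyadenylated RNA of 10 whole-embryo libraries was analysed. The deposited values are FPKM, scaled by the authors for gene length and library size. The tools named are featureCounts, Cufflinks, HISAT2 and Trimmomatic and the builds bosTau9 and ARS-UCD1.2, per the submitters' processing notes; versions and roles are not given in the sources used here. Depth and counting error are unknown, and strand is not stated. Every column was matched to its sample, with 0 left over.

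Of 39911 lines, those of 81 symbols with several lines were left out, none of them a gene described here. For all 81 the 8/16-cell columns repeat 1 set of values, while 75 hold several in the morula columns, so the stages may have been tabulated apart, which bears on comparisons between stages. The scale was log2(FPKM + 1); the 11761 genes whose mean reached 1 FPKM were tested with limma-trend (limma 3.58.1, R 4.3.3; 6 residual degrees of freedom) on 4 group means over all 10 libraries, two-sided, with Benjamini-Hochberg adjustment. The script was tested on simulated data.

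Same-numbered NC and KD morulae correlated in their deviations from group means (r = 0.37, 0.325 and 0.312 across genes), so the numbers were taken to pair them; at the 8/16-cell stage r was 0.0558. Alternatives were a pseudocount of 0.1, other filters (none, 5 FPKM), quantile normalization, equal library sums without the microRNA genes MIR2887-1 and MIR2887-2, only the groups compared, the replicate block, and leaving out each library. The block with 1 morula pair left out was added after seeing the data.

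The 9 genes and the lists were chosen with earlier results of these data known. Beside the 9 genes, H1FOO and RN18S1, the text names up to 4 genes per network list by smallest p in morulae, up to 3 per marker list by highest morula level, and the 3 genes most correlated with each of the 9 (within stages, the first). DSP, CDX2, CYP11A1, COL1A1, HDAC1, KLF6 and genes under 0.1 FPKM were named after their values were seen.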

Additional observations from a re-analysis of the deposited data

How the results depend on the processing

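The table gives no counts, so counting error could not be weighed. In morulae the count of the 9 genes that passed was 0, 5 with the replicate block, 2 with the block and the libraries numbered 2 left out, and 0 to 1 when single libraries were left out (1 without KD morula replicate 1). Between the stages of KD embryos 6 passed, 3 with no filter on low values and 3 with only the groups compared, and 2 to 6 when single libraries were left out. In NC embryos 7 passed; POU5F1, OTX2, KLF17 and SPIC did so in all 17 alternatives. No other count of the 9 moved by over 1.5 times, and at the 8/16-cell stage and for the interaction it was 0 throughout.

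Over all genes, 2 passed between treatments at the 8/16-cell stage (11 unfiltered, 1 with only the groups compared, 2 to 9 without single libraries). In morulae 82 passed (6 unfiltered, 139 at 5 FPKM, 9 with equal sums, 0 with only the groups compared, 1398 with the block, 0 to 527 without single libraries). The 527 came without KD morula replicate 1, and the block without the libraries numbered 2 gave 393. The interaction gave 2 (32 with the block, 2 to 6 without single libraries), the stages of NC embryos 3626 (1406 to 3657), and those of KD embryos 2355 (1333 with equal sums, 693 to 2698). For the comparison of stages in KD embryos the median of all genes went from -0.18 to -0.01 with quantile normalization and -0.03 with equal sums, and for the interaction from -0.10 to 0.01 and 0.05. For stages the replicate block joins numbers that need not be related, and it gave 4592 genes in NC and 3529 of 11761 in KD embryos, where KLF17 (adjusted p 0.013) and LIN28A (0.00611) then passed too. At the 8/16-cell stage same-numbered libraries did not deviate together (r = 0.0558), and the block gave 3 genes.

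Signs turned for differences that did not pass the test. At the 8/16-cell stage KLF17 was -0.0096 with quantile normalization and -0.028 with equal sums, and without single libraries NANOG ran from -0.54 to 0.25, POU5F1 from -0.57 to 0.067, SALL4 from -0.49 to 0.064 and SPIC from -1.32 to 0.014. In morulae SOX2 ran from -0.34 to 0.014. The interaction was 0.022 for OTX2 and 0.41 for SPIC at a pseudocount of 0.1, and ran from -1.16 to 0.24 and -0.90 to 0.44. The cause was not tested.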
